A study of Mus musculus with 13 samples.

Results

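The genes described here are the Wnt ligands, the Frizzled receptors, the co-receptors Lrp5 and Lrp6, and the secreted antagonists of the Sfrp and Dkk families. They were taken by symbol from a table of 30332 mouse genes, in which 39 symbols matched: 19 Wnt ligands, 10 Frizzled receptors, 2 LRP co-receptors, 4 Sfrp genes and 4 Dkk genes. All 39 were in the table, and no measured value was used to choose them.

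RNA was sequenced from 9 populations of cells carrying a Nestin::GFP transgene, a reporter that marks cells in which regulatory sequences of Nestin, a gene of neural progenitors, are active. Fibroblasts of E13.5 mouse embryos (MEFs), at passage 3, were measured untreated (D0) and after 1 and 2 days (D1, D2) in VCR. This mixture holds valproic acid, which inhibits histone deacetylases, CHIR99021, which inhibits the kinase GSK3, and RepSox, which blocks the TGF-beta type I receptor. These 3 libraries were unsorted. After 4 and 8 days (D4, D8) of VCR the cells were separated by flow cytometry into GFP+ and GFP- fractions, with 1 library each. The NSC library came from sorted GFP+ primary neural stem cells at passage 3, for which the labels give no age. The GF library came from sorted GFP+ cells of MEFs given growth factors and no VCR. They received IL6 for 2 days at 50 ng/ml, FGF5 (50 ng/ml) and LIF (100 ng/ml) during the following 4 days, and a last step of 20 ng/ml EGF together with 20 ng/ml bFGF. Whether embryos were pooled is not stated. No untreated library of D1 to D8 was analysed here, so time in culture and VCR cannot be told apart, and the D0 library serves several comparisons. The labels list several media and oxygen levels for the treatment without saying which library had which, so medium and oxygen cannot be told apart from the groups either.

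Wnt proteins are lipid-modified signals that leave the cell with the help of the acyltransferase Porcn and the carrier Wls and bind Frizzled receptors on the cell surface. With Lrp5 or Lrp6 as co-receptor, a Wnt stabilises beta-catenin by restraining the complex that holds GSK3; with other co-receptors such as Ror2, Wnt5a and related ligands act on cell polarity and calcium. Sfrp proteins carry a Frizzled-like domain and bind Wnts outside the cell, whereas Dkk1, Dkk2 and Dkk4 bind Lrp5 and Lrp6. CHIR99021 acts on GSK3, inside the cell and downstream of the ligands, receptors and co-receptors of the beta-catenin route. In the mouse embryo Wnt signals take part in the development of the neural crest and the growth of neural progenitors.

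Each group had 1 library, so no difference has a replicate check, and no p-value or standard deviation is given. Column totals ran from 20104940 estimated counts in NSC to 36751356 in D0, and a count of 3, taken as the floor, was worth 0.0816 CPM in D0 and 0.149 CPM in NSC. Levels are in CPM, each gene's count scaled to its library's total. No transcript length enters CPM, and levels are therefore compared between libraries only. A gene was called higher or lower where log2(CPM + 1) differed by 1 or more (2-fold) and at least 1 of the compared libraries had 5 CPM. Ratios are of CPM with no pseudocount and carry 95% intervals that cover counting error only. The summed level of 10 fibroblast markers was 12463 CPM in D0 and 5696 to 8055 CPM in D1, D2 and the GFP- fractions. It was 1656 and 1434 CPM in the GFP+ fractions of D4 and D8, 343 CPM in NSC and 16881 CPM in GF. Single markers could differ from the sum: Col1a1 had 5658 CPM in D0 and 415 in the GFP- fraction of D8, and Dcn 613 and 3355 CPM. The sum of 10 neural crest and Schwann cell markers was 4039 and 4709 CPM in the GFP+ fractions, 352 CPM in NSC and 69.4 to 230 CPM in the other libraries. Markers of neural stem cells, 12 genes, summed to 1545 CPM in NSC, 946 and 908 CPM in the GFP+ fractions and 234 CPM in GF. Endothelial and epithelial markers, 6 genes each, summed to at most 26.7 and 21.4 CPM in any library.

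Of the 39 genes, 26 reached 5 CPM in at least 1 library: 10 ligands, 9 Frizzled receptors, both co-receptors, 3 Sfrp genes and 2 Dkk genes. Their highest level was in GF for 11, in NSC for 5, in the GFP- fraction of D8 for 5, and in the GFP+ fraction of D8 for 3. The lowest level was in NSC for 11 of the 26.

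**Figure D1:**
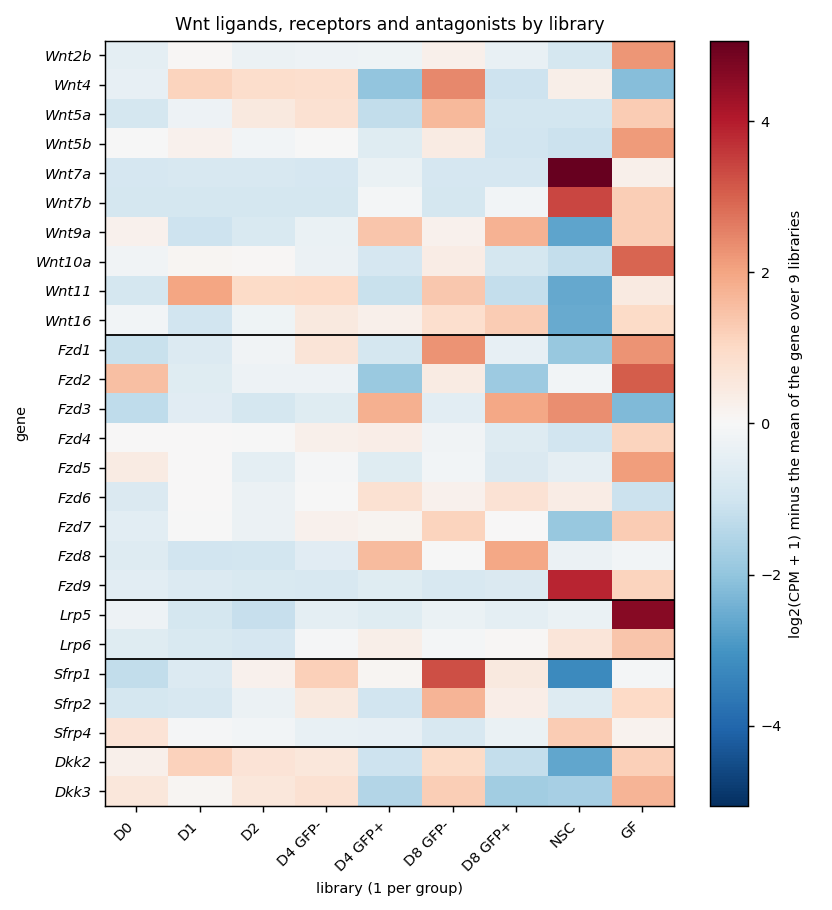
Level of the 26 genes that reached 5 CPM, as log2(CPM + 1) minus the gene's mean over the 9 libraries, with 1 library per column and lines between families. Lrp5 stands out in GF, Wnt7a, Wnt7b and Fzd9 in NSC, Sfrp1 in the GFP- fraction of D8, and Fzd3 and Fzd8 in both GFP+ fractions.

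Most of the genes that could be tested differed between the fractions of VCR-treated cells. In the GFP+ fraction 3 of the genes were higher than in the GFP- fraction on both days: the receptors Fzd3 and Fzd8 and the ligand Wnt9a. Another 9 were lower on both days: the ligands Wnt4, Wnt5a and Wnt11, the receptors Fzd1 and Fzd2, and Sfrp1, Sfrp2, Dkk2 and Dkk3. Fzd7 was lower at D8 alone. All 4 genes with an Sfrp or Dkk symbol of the rule that could be tested were therefore lower in the GFP+ fraction at each day. Of all tested genes, 11.5% were lower at D4 and 12.2% at D8.

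At D4, 17 of the 39 genes could be called, of which 3 were higher and 9 lower, beside 25.4% of all tested genes higher and 11.5% lower. Their median difference was -1.09 on the log2 scale, and that of all tested genes was 0.34. At D8, 3 of 17 were higher and 10 lower, beside 20.3% and 12.2% of all tested genes, with medians of -1.41 and 0.22. Scaling by median ratios or by TMM brought the median of all genes to 0.07 and 0.05 at D4, and to 0.02 and 0.05 at D8. Under these scalings the share of higher genes among all calls went from 68.7% to 51.7% and 50.7% at D4, and from 62.5% to 49.9% and 52.0% at D8. The split of the genes described here was 3 higher and 9 lower at D4, and 3 and 10 at D8, under each of the 3 scalings. The fractions also differed in macrophage markers, 8 genes, which summed to 246 CPM in the GFP+ and 26.2 CPM in the GFP- fraction at D4 and to 138 and 19.7 CPM at D8. Lyz2 and Cd68 made up most of the GFP+ sums, at 185 and 47.8 CPM at D4 and 83.5 and 44.96 CPM at D8. In the GFP+ and GFP- fractions Adgre1 was at 4.11 and 0.110 CPM at D4 and at 2.42 and 0.213 CPM at D8. In the same order C1qa was at 2.64 and 0.0366 CPM at D4 and at 0.520 and 0 CPM at D8. Ptprc was at 2.94 and 0.658 CPM at D4 and at 3.09 and 0.919 CPM at D8. Csf1r was at 2.99 and 0.675 CPM at D4 and at 2.91 and 2.92 CPM at D8. Cx3cr1 was at 0.438 and 0.456 CPM at D4 and at 0.4304 and 1.07 CPM at D8. Aif1 had no more than 1 count in any of the 4 fractions. The fractions differed as well in the summed fibroblast markers (1656 against 6320 CPM at D4, 1434 against 8055 CPM at D8) and the summed neural crest markers (4039 against 137 CPM, 4709 against 163 CPM). In such bulk libraries fewer cells of a type and less RNA per cell cannot be told apart, and the part of these markers in the results was not tested.

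**Figure D2:**
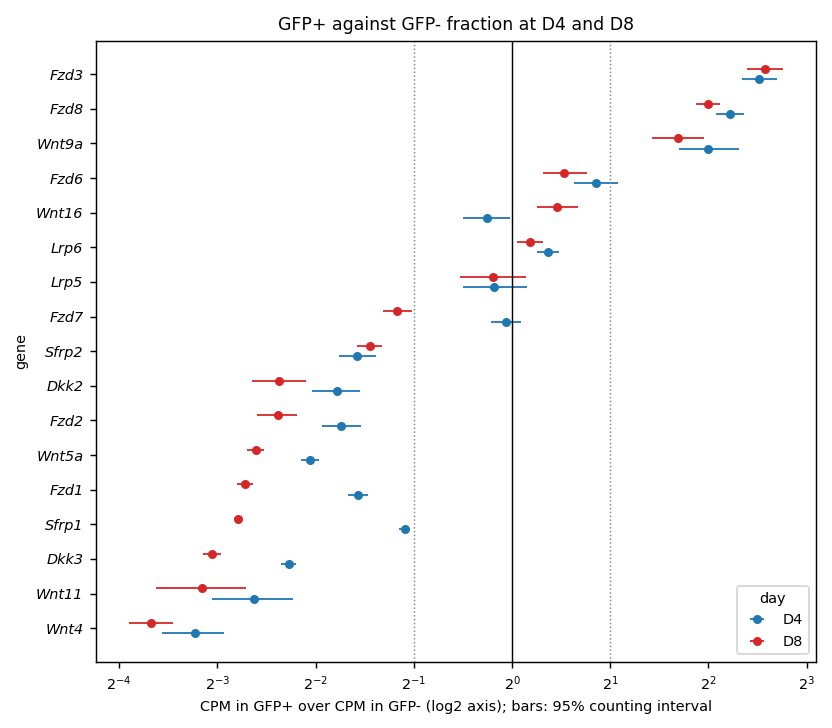
Ratio of CPM in the GFP+ fraction to CPM in the GFP- fraction for the 17 genes tested at both days, on a log2 axis, with 95% counting intervals and dotted lines at 2-fold. Fzd3, Fzd8 and Wnt9a lie right of the upper line on both days, 9 genes lie left of the lower line on both days, and Wnt16 lies on opposite sides of equality at D4 and D8.

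The promoter windows of Wnt4 and Wnt11, which had the largest ratios between the fractions among the ligands that could be called, are shown beside that of Wnt9a, the ligand called in the other direction. They are RefSeq sequences of build GRCm38.p6, from 250 bases before to 50 after the annotated start, on the plus strand, 5′ to 3′. Wnt4 lies at chr4:137277385-137277684, the first of 2 windows of Wnt11 at chr7:98834862-98835161, and Wnt9a at chr11:59306680-59306979. The start used for Wnt4 is the first base of the gene span given below. Those used for Wnt11 and Wnt9a lie downstream of the first base of their spans. Capitals mark every match, on either strand, to the core letters read by TCF and LEF factors (CTTTGAT) or to the GC box (GGGCGG).
Wnt4: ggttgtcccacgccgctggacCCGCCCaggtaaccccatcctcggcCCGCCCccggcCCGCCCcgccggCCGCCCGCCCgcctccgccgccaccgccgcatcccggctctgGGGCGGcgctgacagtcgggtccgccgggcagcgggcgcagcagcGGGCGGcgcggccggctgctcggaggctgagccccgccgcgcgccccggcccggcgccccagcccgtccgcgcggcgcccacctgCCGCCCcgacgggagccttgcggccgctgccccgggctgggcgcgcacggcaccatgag
Wnt11: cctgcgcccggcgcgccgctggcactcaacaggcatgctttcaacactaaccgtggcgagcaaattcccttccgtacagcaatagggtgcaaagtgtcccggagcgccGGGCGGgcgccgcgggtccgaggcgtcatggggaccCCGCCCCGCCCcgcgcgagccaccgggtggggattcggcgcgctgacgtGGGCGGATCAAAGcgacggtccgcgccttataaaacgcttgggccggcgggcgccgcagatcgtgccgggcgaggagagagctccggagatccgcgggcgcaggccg
Wnt9a: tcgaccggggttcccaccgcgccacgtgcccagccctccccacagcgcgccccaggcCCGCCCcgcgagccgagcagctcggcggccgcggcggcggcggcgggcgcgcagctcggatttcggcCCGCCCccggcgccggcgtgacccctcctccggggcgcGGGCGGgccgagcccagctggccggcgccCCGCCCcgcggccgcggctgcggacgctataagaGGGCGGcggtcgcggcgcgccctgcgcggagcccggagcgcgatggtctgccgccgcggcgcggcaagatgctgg
The Wnt11 window held 1 TCF/LEF match, written ATCAAAG on this strand. Its first base stood at position -51 from the start used for the window, and the other 2 windows held none. The GC box occurred 8 times in Wnt4, 4 times in Wnt11 and 5 times in Wnt9a. Windows were found for 25 of the 39 genes, 28 in all. TCF/LEF letters stood in 2 of the 28, those of Wnt11 and Wnt5b, and in 3.73% of all 32851 windows, while the GC box stood in 21 of the 28 and in 35.7% of all. A match is a run of letters and not a shown binding site, and these data do not show which start was used.

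Wnt4, a ligand known from kidney and gonad development, lies on chromosome 4 at 137277635-137299501. Its level was 10.3 CPM in D0, 31.8 in D1, 26.9 in D2, 26.0 in the GFP- and 2.77 in the GFP+ fraction of D4, 80.5 in the GFP- and 6.29 in the GFP+ fraction of D8, 17.6 in NSC and 2.39 in GF. Both GFP+ fractions and GF thus lay below untreated MEFs, and every other library lay above them. The GFP+ level was 9.40-fold lower than the GFP- level at D4 (95% interval 7.62 to 11.8) and 12.8-fold lower at D8 (11.0 to 14.9), the furthest apart of the 17 genes tested on each day.

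Wnt11, best known for cell movements in fish and frog embryos, lies on chromosome 7 at 98835084-98854747. Its level was 2.18 CPM in D0, 22.9 in D1, 10.8 in D2, 10.9 and 1.75 in the GFP- and GFP+ fractions of D4, 14.2 and 1.59 in those of D8, 0 in NSC and 7.27 in GF. The D1 library had the most Wnt11 of all 9, at 10.5-fold the D0 level (8.34 to 13.4), and D2 was 2.12-fold below D1 (1.87 to 2.42). In the GFP+ fraction it was 6.20-fold lower at D4 and 8.89-fold lower at D8.

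Wnt9a, a ligand with a role in joint formation, lies on chromosome 11 at 59306849-59333552. It had 6.42 CPM in D0, 2.05 in D1, 2.68 in D2, 3.99 and 15.9 in the GFP- and GFP+ fractions of D4, 6.38 and 20.5 in those of D8, no count in NSC and 14.1 in GF. Wnt9a first fell, 3.13-fold at D1 and 2.40-fold at D2, and both falls were lost with a pseudocount of 5. In the GFP+ fraction it was 3.99-fold higher than in the GFP- fraction at D4 (3.25 to 4.95) and 3.22-fold higher at D8 (2.69 to 3.88). The NSC library, with no count, was at least 43.0-fold below D0 when set against the floor of 3 counts.

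Wnt5a, the ligand most tied to the polarity route, lies on chromosome 14 at 28504543-28527448. It measured 46.7 CPM in D0, 73.1 in D1, 122 in D2, 149 and 35.9 in the GFP- and GFP+ fractions of D4, 273 and 44.7 in those of D8, 45.6 in NSC and 215 in GF. The GFP- fractions and GF were therefore high, and the GFP+ fractions, NSC and D0 lay within 35.9 to 46.7 CPM. The fractions differed 4.15-fold at D4 and 6.10-fold at D8.

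Wnt16, which has a role in bone, did not reach a call between the fractions. It had 6.16 CPM in D0, 3.00 in D1, 5.87 in D2, 10.2 and 8.49 in the GFP- and GFP+ fractions of D4, 13.1 and 18.1 in those of D8, 0.352 in NSC and 14.4 in GF. The GFP+ fraction of D8 held the most, 2.13-fold above the GFP+ fraction of D4 (1.84 to 2.46), and NSC the least.

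The paralogs Wnt7a and Wnt7b, ligands of the developing brain, were abundant in NSC alone among the 9 libraries. Wnt7a, on chromosome 6 at 91363981-91411353, had 61.2 CPM in NSC, 1.22 in GF and 0.488 in the GFP+ fraction of D4, and lay between 0.0272 and 0.0608 CPM, or no more than 2 counts, in the other 6. Wnt7b had 18.1 CPM in NSC, 3.34 in GF, 0.718 and 0.658 in the GFP+ fractions of D4 and D8, and no count in D0, D1, D2 or either GFP- fraction. Both GFP+ fractions therefore held some Wnt7b where the GFP- fractions held none, at least 6.55-fold at D4 and at least 5.16-fold at D8 against the floor, but below the 5 CPM that a call required.

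Another 3 ligands reached 5 CPM in GF only. Wnt10a, a ligand of skin and teeth, had 18.1 CPM in GF and 0.0497 to 2.17 in the other 8 libraries. Wnt2b had 7.76 CPM in GF and 0 to 1.19 elsewhere. Wnt5b, the paralog of Wnt5a, had 16.0 CPM in GF and 0.796 to 4.08 elsewhere. The annotated spans of Wnt2b and Wnt5b overlap those of St7l and Fbxl14. Whether reads were assigned by strand is not stated, so reads from the shared bases cannot be told apart.

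Among the receptors, Fzd3 and Fzd8 marked the GFP+ fractions. Fzd3, required for axon guidance and known from the polarity route, lies on chromosome 14 at 65192441-65262463. It had 6.26 CPM in D0, 11.0 in D1, 8.73 in D2, 10.8 and 61.5 in the GFP- and GFP+ fractions of D4, 11.4 and 67.6 in those of D8, 89.8 in NSC and 2.80 in GF. Both GFP+ fractions and NSC lay above 60 CPM and the other 6 libraries at 11.4 CPM or below. The GFP+ level was 5.72-fold the GFP- level at D4 (5.06 to 6.49) and 5.95-fold at D8 (5.24 to 6.79).

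Fzd8, a receptor of the developing forebrain, had 16.7 CPM in D0, 13.1 in D1, 13.8 in D2, 17.9 and 83.2 in the GFP- and GFP+ fractions of D4, 27.0 and 107 in those of D8, 22.1 in NSC and 24.6 in GF. Unlike Fzd3 it was not high in NSC: the GFP+ fraction of D8 had 4.86-fold the NSC level of Fzd8 (4.40 to 5.38). Its GFP+ to GFP- ratios were 4.65 at D4 and 3.98 at D8.

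Fzd1 and Fzd2 ran the other way between the fractions. Fzd1 lies on chromosome 5 at 4753839-4758216 and had 28.1 CPM in D0, 38.2 in D1, 55.0 in D2, 98.7 and 33.3 in the GFP- and GFP+ fractions of D4, 308 and 46.7 in those of D8, 15.8 in NSC and 302 in GF. It was 2.97-fold lower in the GFP+ fraction at D4 and 6.59-fold lower at D8. Fzd2, on chromosome 11 at 102604431-102608058, had 98.0 CPM in D0, 21.2 in D1, 27.3 in D2, 27.7 and 8.30 in the GFP- and GFP+ fractions of D4, 44.8 and 8.56 in those of D8, 30.1 in NSC and 287 in GF. Every VCR-treated library thus held less Fzd2 than untreated MEFs, with the GFP+ fractions lowest, and GF held the most.

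**Figure D3:**
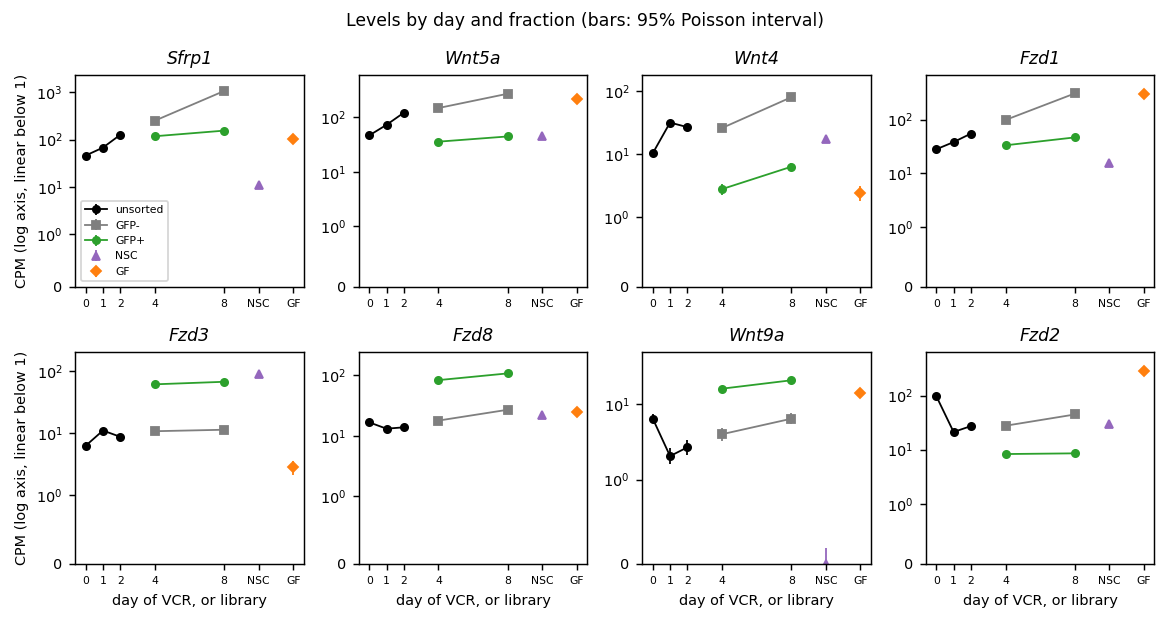
CPM of 8 genes by day of VCR, with NSC and GF at the right, on an axis that is logarithmic above 1 CPM and linear below; bars are 95% Poisson intervals of the count, and the lines join libraries of the same kind. The GFP- line lies above the GFP+ line for Sfrp1, Wnt5a, Wnt4, Fzd1 and Fzd2, and below it for Fzd3, Fzd8 and Wnt9a.

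The remaining receptors moved less between the fractions. Fzd7, a receptor of stem and mesenchymal cells, had 13.2 CPM in D0, 19.6 in D1, 16.1 in D2, 23.0 and 22.1 in the GFP- and GFP+ fractions of D4, 45.1 and 20.1 in those of D8, 4.48 in NSC and 49.6 in GF. It was 2.25-fold lower in the GFP+ fraction of D8 (2.03 to 2.49), a call lost with a pseudocount of 5. Fzd6, which acts in polarity of skin and hair, had 5.16 to 9.23 CPM in D0, D1 and D2, 9.02 and 16.3 in the fractions of D4, 11.0 and 15.9 in those of D8, 12.4 in NSC and 3.85 in GF. The fractions had Fzd6 ratios of 1.81 and 1.45, below the 2-fold call.

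Fzd9, a receptor of the hippocampus, had 26.4 CPM in NSC, 3.11 in GF and 0.0731 to 0.327 in the other 7. The GF library led for the remaining receptors. Fzd5 had 11.1 CPM in GF and 0.682 to 2.70 elsewhere. Fzd4, the receptor for norrin in retinal vessels, had 6.09 CPM in GF and 0.647 to 3.07 elsewhere, and its span shares 338 bases with that of Tmem135.

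The co-receptors Lrp5 and Lrp6 did not divide the fractions. Lrp5, on chromosome 19 at 3584825-3686585, had 222 CPM in GF. In the other 8 libraries it lay between 3.01 CPM in D2 and 6.63 CPM in D0. Lrp6 had 24.7 CPM in D0, 22.1 in D1, 21.1 in D2, 37.5 and 48.2 in the GFP- and GFP+ fractions of D4, 35.9 and 40.8 in those of D8, 60.2 in NSC and 105 in GF. The fractions of D4 and D8 had Lrp5 ratios of 0.883 and 0.872, and Lrp6 ratios of 1.29 and 1.14.

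Of the antagonists, Sfrp1 covered the widest range. It lies on chromosome 8 at 23411383-23449632 and had 45.9 CPM in D0, 67.5 in D1, 126 in D2, 251 and 117 in the GFP- and GFP+ fractions of D4, 1063.5 and 154 in those of D8, 10.9 in NSC and 101 in GF. The GFP- fraction of D8 stood far above all others, 4.24-fold above the GFP- fraction of D4 (4.13 to 4.36). The GFP+ fraction was lower 2.14-fold at D4 (2.05 to 2.22) and 6.89-fold at D8 (6.68 to 7.12).

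Sfrp2, a related antagonist of mesenchyme, had 9.85 CPM in D0, 10.6 in D1, 15.7 in D2, 27.9 and 9.37 in the GFP- and GFP+ fractions of D4, 66.6 and 24.4 in those of D8, 12.0 in NSC and 39.8 in GF. From D4 to D8 it rose in both fractions, 2.39-fold in the GFP- and 2.60-fold in the GFP+ fraction. Sfrp4 was low throughout, from 0.553 CPM in the GFP- fraction of D8 to 5.57 CPM in NSC.

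Dkk3, a secreted protein of the Dkk family that does not share the LRP binding of the others, lies on chromosome 7 at 112116019-112159482. It had 197 CPM in D0, 142 in D1, 198 in D2, 225 and 46.6 in the GFP- and GFP+ fractions of D4, 318 and 38.2 in those of D8, 40.3 in NSC and 447 in GF. The GFP+ fractions and NSC lay at 38.2 to 46.6 CPM and all other libraries at 142 CPM or above. Dkk2, an LRP-binding member, had 15.0 CPM in D0, 28.7 in D1, 20.8 in D2, 18.8 and 5.47 in the GFP- and GFP+ fractions of D4, 24.8 and 4.78 in those of D8, 1.17 in NSC and 29.8 in GF. In the GFP+ fraction Dkk3 was 4.84-fold lower at D4 and 8.32-fold lower at D8, and Dkk2 3.44-fold and 5.18-fold.

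The other 13 genes stayed below 5 CPM everywhere. Wnt2 came closest, with 4.81 CPM in D0 (177 counts) and at most 39 counts in any other library. With a floor of 1 CPM, and under median ratio scaling and TMM, Wnt2 was called lower than in D0 at D1 and D2. The same held in both fractions of D8, in NSC and in GF. Wnt10b had 46 counts in the GFP+ fraction of D8 and 18 in that of D4, none in either GFP- fraction, and 19 in GF. Wnt3, Wnt8a, Dkk4 and Dkk1 were highest in NSC, with 35, 20, 15 and 42 counts, and Wnt1, a classical neural ligand, had counts in NSC (6) and GF (3) only. Wnt6 and Fzd10 reached 43 and 12 counts at most, Wnt8b and Sfrp5 never passed 3, and Wnt3a and Wnt9b were listed at 0 in all 9 libraries.

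In the first 2 days of VCR, 4 of the 17 tested genes were called at D1 and 6 of 17 at D2. At D1, 2 of 17 were higher than in D0, beside 6.63% of all tested genes, and 2 were lower, beside 5.92%. Wnt11 rose 10.5-fold and Wnt4 rose 3.09-fold (2.74 to 3.48), while Fzd2 fell 4.61-fold (4.26 to 5.01) and Wnt9a fell 3.13-fold. At D2, 4 of 17 were higher, beside 6.74%, and 2 lower, beside 6.04%. Wnt11 was then 4.95-fold, Sfrp1 2.75-fold, Wnt5a 2.62-fold and Wnt4 2.61-fold above D0, with Fzd2 3.59-fold and Wnt9a 2.40-fold below. Between D1 and D2 none was higher and 1 of 15 was lower, Wnt11, beside 1.20% and 2.79% of all tested genes.

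By D8 both fractions had more Sfrp1 and Sfrp2 and less Fzd2 than D0, and each had further calls of its own. The GFP- fraction had 7 of 17 higher, beside 16.4%, and 1 lower, beside 6.12%. Sfrp1 had risen 23.2-fold (22.1 to 24.4), Fzd1 11.0-fold (10.3 to 11.7), Wnt4 7.81-fold, Sfrp2 6.76-fold, Wnt11 6.51-fold, Wnt5a 5.84-fold and Fzd7 3.41-fold, and Fzd2 had fallen 2.19-fold. All tested genes had a median of 0.31, which became 0.03 with median ratios and -0.05 with TMM. Both scalings gave 7 higher and 2 lower, with Wnt2 added as lower. The summed fibroblast markers were 8055 CPM in this fraction and 12463 CPM in D0, but the 10 markers did not move together. Pdgfra, Dcn, Lum and Twist2 were called higher than in D0, and Col1a1, Col1a2 and S100a4 lower. The part of these markers in the result was not tested.

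In the GFP+ fraction of D8, 7 of 16 were higher than in D0, beside 35.7% of all tested genes, and 3 were lower, beside 13.4%. Fzd3 was 10.8-fold higher (9.42 to 12.4), Fzd8 6.41-fold, Sfrp1 3.36-fold, Wnt9a 3.20-fold, Fzd6 3.08-fold, Wnt16 2.94-fold and Sfrp2 2.48-fold. Fzd2 was 11.5-fold lower (10.1 to 13.1), Dkk3 5.17-fold and Dkk2 3.14-fold. All genes had a median of 0.57 in this comparison, which median ratio scaling brought to 0.08 and TMM to 0.02. With those scalings the split was 5 higher and 5 lower, and 4 higher and 5 lower. Wnt16 and Sfrp2 were no longer called under either, nor Fzd6 under TMM, while Wnt2 and Wnt4 became lower under both. Fzd3 stayed at 2.79 and 2.75 on the log2 scale.

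At D4 the GFP- fraction already had 6 of 17 higher than D0 and 1 lower, beside 11.0% and 5.28% of all tested genes, and the GFP+ fraction 5 of 16 higher and 4 lower, beside 38.5% and 11.3%. Those medians of all genes were 0.30 and 0.66, which median ratios brought to -0.02 and 0.06 and TMM to 0.01 and 0.07. Under both scalings the GFP- split was 5 higher and 2 lower, and the GFP+ split 2 higher and 5 lower, so the direction of the GFP+ balance turned. From D4 to D8 the GFP- fraction gained 4 of 17, beside 3.68% of all tested genes: Sfrp1, Fzd1 (3.12-fold), Wnt4 (3.09-fold) and Sfrp2. The GFP+ fraction gained 2 of 16, Sfrp2 and Wnt16, beside 1.28%. None was lower at D8 than at D4 in either fraction, beside 1.47% of all tested genes in the GFP- and 1.49% in the GFP+ fraction.

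Primary neural stem cells stood above untreated MEFs mainly in Wnt7a, Wnt7b, Fzd9 and Fzd3. In NSC 6 of 20 were higher, beside 49.9% of all tested genes, and 7 were lower, beside 17.4%. Wnt7a had 1 count in D0 and a ratio of 2250 (403 to 88951), Wnt7b was at least 222-fold higher, Fzd9 80.7-fold (45.8 to 157) and Fzd3 14.3-fold (12.5 to 16.5). Lrp6 and Fzd6, at 2.44-fold and 2.40-fold, stood near the median of all genes, which was 1.00 on the log2 scale, and neither was called under median ratio scaling or TMM.

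The lower genes in NSC were Wnt9a, Wnt16 at 17.5-fold (8.43 to 44.4), Dkk2 at 12.8-fold, Dkk3 at 4.89-fold, Sfrp1 at 4.20-fold, Fzd2 at 3.26-fold and Fzd7 at 2.95-fold. The median of all genes was 0.42 with median ratios and -0.16 with TMM, and the splits were 4 higher and 9 lower, and 4 and 10. Summed macrophage markers were 478 CPM in NSC and 91.0 CPM in D0, and fibroblast markers 343 and 12463 CPM, with Dcn, Lum and Twist2 at 0 in NSC. Their part in the result was not tested.

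Cells raised with growth factors had the broadest rise. In GF 17 of 22 genes were higher than in D0, beside 32.1% of all tested genes, and 1 was lower, beside 16.0%. Both co-receptors rose, Lrp5 33.5-fold (29.4 to 38.2) and Lrp6 4.25-fold (3.94 to 4.60), as did 7 of 8 ligands, 5 of 8 Frizzled receptors, both tested Sfrp genes and Dkk3. Among the ligands Wnt2b was 23.8-fold higher (13.3 to 46.9), Wnt10a 15.8-fold, Wnt5b 5.70-fold and Wnt5a 4.59-fold. The receptor with the largest rise was Fzd1 at 10.8-fold (10.1 to 11.5), followed by Fzd5 at 4.09-fold and Fzd7 at 3.75-fold. Of the 22 tested genes only Wnt4 was lower, 4.31-fold (3.23 to 5.86). Wnt2, below the 5 CPM that a call required, had 177 counts in D0 and 7 in GF.

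The median difference of the 22 genes was 1.46 and that of all tested genes 0.30, or 0.21 and 0.04 with median ratios and TMM. Median ratio scaling left 16 higher and 3 lower, and TMM left 12 and 3. Wnt9a was lost under both, and Dkk3, Fzd4, Sfrp1 and Wnt16 under TMM, while Fzd3 and Wnt2 became lower under both. The sum of fibroblast markers was 16881 CPM in GF, the highest of the 9 libraries, and Nes, the endogenous gene behind the reporter, had 51.0 CPM against 344 in NSC. The part of these in the result was not tested.

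**Figure D4:**
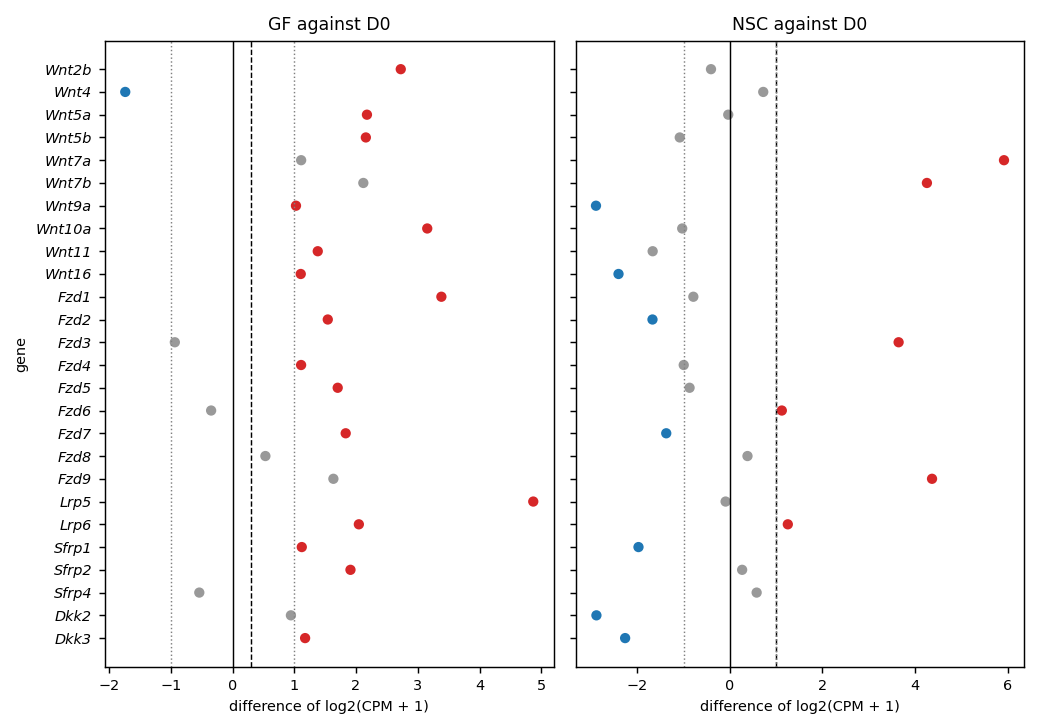
Difference of log2(CPM + 1) from D0 for the 26 genes in GF (left) and NSC (right), in red where higher, in blue where lower and in grey where not called; dotted lines mark 2-fold and the dashed line the median of all tested genes. In GF 17 points are red and Wnt4 is blue, and in NSC 6 are red and 7 are blue.

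Both kinds of GFP+ cell made from MEFs can be set beside NSC. Against NSC, the GFP+ fraction of D8 had 6 of 19 higher, beside 17.8% of all tested genes, and 6 lower, beside 33.9%. The higher were Wnt9a, at least 138-fold against the floor, Wnt16 51.5-fold (25.1 to 130), Sfrp1 14.1-fold, Fzd8 4.86-fold, Fzd7 4.48-fold and Fzd1 2.95-fold. The lower were Wnt7a, with 1 count in the GFP+ fraction, Fzd9 190-fold (73.9 to 701), Wnt7b 27.5-fold (17.4 to 46.2), Sfrp4 5.03-fold, Fzd2 3.52-fold and Wnt4 2.80-fold. All tested genes had a median of -0.36, which became -0.28 with median ratios and 0.22 with TMM, and the splits became 7 higher and 5 lower, and 7 and 4. Sfrp4 was lost under both scalings and Wnt4 under TMM.

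Growth factors and VCR gave GFP+ cells that differed in most of these genes. Compared with the GFP+ fraction of D8, GF had 14 of 22 higher, beside 21.5% of all tested genes, and 4 lower, beside 28.2%. Wnt10a was 57.9-fold higher (30.2 to 128), Lrp5 41.4-fold (35.2 to 48.8) and Fzd2 33.6-fold (29.6 to 38.3), while Fzd3 was 24.2-fold lower (18.8 to 31.6), Fzd8 4.35-fold, Fzd6 4.14-fold and Wnt4 2.63-fold. Against NSC, GF had 17 of 26 higher and 7 lower, beside 21.2% and 42.4%. The medians of all tested genes were -0.27 and -0.67, moving to 0.12 and -0.19 with median ratios and to 0.01 and 0.20 with TMM. With median ratios the splits were 15 higher and 3 lower against the GFP+ fraction and 18 and 6 against NSC, and with TMM they were 14 and 3, and 18 and 5. These comparisons share libraries with one another, and each is given for its own values.

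**Figure D5:**
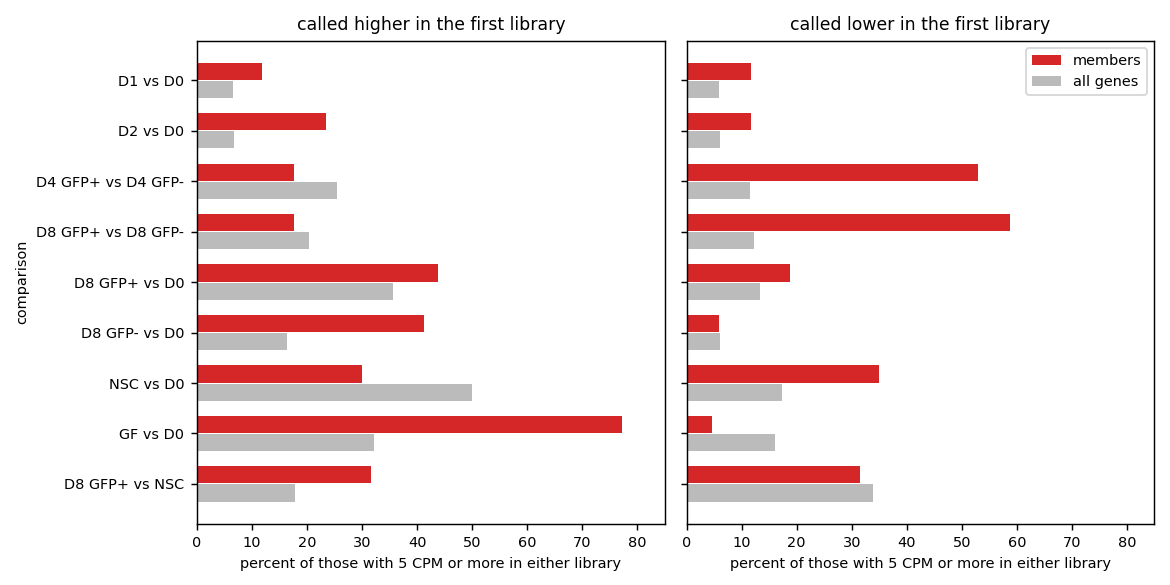
Percent of tested genes called higher (left) or lower (right) in the first-named library of 9 comparisons, with the Wnt ligands, receptors and antagonists in red and all tested genes in grey. The red bar exceeds the grey one most in GF against D0 (17 of 22 higher) and, on the lower side, between the fractions at D4 (9 of 17) and D8 (10 of 17).

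Genes that carry the signal further were counted from 4 lists of other pathway members. Between the fractions, 25.4% of all tested genes were higher and 11.5% lower at D4, and 20.3% and 12.2% at D8. Against D0 these shares were 49.9% and 17.4% in NSC, and 32.1% and 16.0% in GF. For Wnt secretion and further receptors, 1 of 16 tested genes was higher and 6 lower in the GFP+ fraction at D4, and 1 and 9 of 16 at D8. The lower ones on both days included the carrier Wls and the receptors Ror1, Ror2 and Ryk. Gpc3, a cell surface proteoglycan, had the largest fall, 5.39-fold at D4 and 9.48-fold at D8. Lgr4, a receptor for R-spondins, was 2.34-fold higher at D4, a call lost under both scalings, and Porcn was 4.09-fold higher at D8. In NSC 5 of 19 were higher and 12 lower than in D0, with Rnf43, a ligase that removes Frizzled receptors, at 11.0 CPM against 3 counts in D0 and Gpc4 37.5-fold lower; under TMM 1 was higher and 12 lower. In GF 3 of 16 were higher and 5 lower, with the Dkk receptor Kremen1 9.66-fold higher and the R-spondin receptor Lgr5 29.3-fold lower.

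Other secreted agonists and antagonists had 1 of 7 higher and 5 lower in the GFP+ fraction at D4, beside 25.4% and 11.5% of all tested genes. At D8 it was 1 and 5 of 9, beside 20.3% and 12.2%. Igfbp4, an IGF binding protein that also restrains Wnt, fell 7.21-fold and 13.9-fold. The R-spondin Rspo1 was 2.47-fold higher at D4, which neither other scaling called. Ndp, which encodes norrin, was 27.0-fold higher at D8, with only 0.298 CPM in the GFP- fraction. In NSC 3 of 8 were higher and 4 lower, beside 49.9% and 17.4%. Draxin, an axon guidance factor, led the higher ones at 253-fold, with only 0.219 CPM in D0. Rspo3 led the lower ones at 110.2-fold, with only 0.448 CPM in NSC. In GF 7 of 10 were higher, beside 32.1%, and 1 was lower, beside 16.0%: Rspo2, at 2.58-fold. Notum, the enzyme that strips the lipid from Wnts, had 61.4 CPM in GF and 4 counts in D0.

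Inside the cell the counts depended on the scaling. For the beta-catenin route, 9 of 24 were higher and 1 lower in the GFP+ fraction at D4, beside 25.4% and 11.5% of all tested genes. At D8 it was 3 and 1 of 23, beside 20.3% and 12.2%. Median ratio scaling and TMM each gave 3 higher and 3 lower at D4, and 1 and 1 at D8. The co-repressor Tle3 led both days at 5.37-fold and 4.96-fold. The lower ones were Ctnnbip1, an inhibitor of beta-catenin, by 2.25-fold at D4 and the transcription factor Tcf7l1 by 2.33-fold at D8. In NSC 16 of 22 were higher, beside 49.9%, with Tle1 at 12.3-fold, and 1 was lower, beside 17.4%: Tcf7l1, at 5.38-fold. Median ratios gave 11 and 1, and TMM 8 and 2. In GF 12 of 24 were higher, beside 32.1%, with Bcl9l, a beta-catenin co-activator, at 13.1-fold. None was lower, beside 16.0%. With median ratios and TMM 11 and 10 were higher and none lower.

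For the polarity and calcium routes, 6 of 19 were higher and 1 lower in the GFP+ fraction at D4, beside 25.4% and 11.5%. At D8 it was 6 and 3 of 18, beside 20.3% and 12.2%. Both other scalings gave 4 higher and 1 lower at D4, and 4 and 3 at D8. The calcium-regulated factor Nfatc2 was 36.4-fold higher at D4 and 25.8-fold higher at D8, with 0.585 and 1.02 CPM in the GFP- fractions. Camk2g, a calmodulin kinase, was 3.63-fold lower at D4, and Nfatc4 was 2.77-fold lower at D8. In NSC 12 of 22 were higher, beside 49.9%, with the polarity cadherin Celsr3 at 129.8-fold from 0.626 CPM in D0. Lower were 2, beside 17.4%, with Nfatc4 at 5.46-fold. Median ratios gave 11 and 6, and TMM 10 and 8. In GF 11 of 20 were higher, beside 32.1%, with Nfatc2 at 18.5 CPM against 2 counts in D0. Only 1 was lower, beside 16.0%: Camk2d, at 2.44-fold. The shares of all tested genes given above for each comparison are the background of these counts.

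As background to the treatment, Axin2, the feedback gene that beta-catenin induces, had 0.327 CPM in D0, 2.23 in D1, 2.43 in D2, 1.50 and 1.64 in the GFP- and GFP+ fractions of D4, 8.59 and 3.12 in those of D8, 6.12 in NSC and 9.57 in GF. Nkd2, another feedback gene, had 29.1 CPM in D0, 101 and 117 in D1 and D2, 108 and 599 in the fractions of D4, 324 and 563 in those of D8, 15.9 in NSC and 47.8 in GF. Lef1 lay between 2.16 and 7.76 CPM in all 9. Every VCR-treated library held more Axin2 and Nkd2 than D0, but the 12 feedback genes did not move as 1 group. Lgr5 had 165 CPM in D0 and 17.8 to 90.2 CPM in the 6 VCR-treated libraries, and Ccnd1 had 260.0 CPM in D0 and 116.6 to 497.8 CPM in those 6. Of the list, 2 of 5 tested were higher than in D0 and 1 lower at D1, and 2 of 6 and 2 at D2. At D4 it was 3 of 7 and 2 in the GFP- and 2 of 7 and 1 in the GFP+ fraction. The shares of all tested genes, higher and lower, were 6.63% and 5.92% at D1 and 6.74% and 6.04% at D2. At D4 they were 11.0% and 5.28% in the GFP- and 38.5% and 11.3% in the GFP+ fraction. Both other scalings changed only the GFP- split of D4, to 3 and 3. Against D0 the GFP- fraction of D8 had 7 of 9 higher and none lower, beside 16.4% and 6.12% of all tested genes. The GFP+ fraction of D8 had 3 of 7 and 1, beside 35.7% and 13.4%. NSC had 5 of 9 and 2, beside 49.9% and 17.4%, and GF 5 of 11 and 1, beside 32.1% and 16.0%. Both other scalings gave 6 higher and 2 lower in the GFP- fraction, 2 and 2 in the GFP+ fraction, and 5 and 1 in GF. In NSC median ratios gave 5 and 3, and TMM 4 and 3.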

How the data were processed

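Of 13 samples, the 9 RNA-seq libraries were used, with groups from their titles, and 4 ATAC-seq samples were left out. The table deposited by the authors holds estimated counts per gene symbol. The submitters' processing notes name kallisto 0.43.1 and the build GRCm38 among others, with no roles; for the annotation, the summing of transcripts and the kit's strand the answer is: not given in the sources used here. The table is named as TPM, but its columns sum to different totals and 16908 genes have fractional values, so it was read as estimated counts.

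CPM was computed from the column totals. A call needed a difference of 1 or more in log2(CPM + 1), which makes changes of low genes look smaller, and 5 CPM in at least 1 of the 2 libraries. Intervals of ratios are exact conditional binomial and those of levels exact Poisson, both at 95% on counts rounded to whole numbers. A gene at 0 was set to the floor of 3 counts per library for a bound. Across 16 comparisons no test between groups was possible with 1 library each. Alternatives were pseudocounts of 0.1 and 5, a floor of 1 CPM or none, median ratio scaling over 8290 genes and TMM (edgeR 4.0.16, R 4.3.3). The scalings were applied to the pathway and feedback lists after seeing the data. Other steps used Python 3.11.15, pandas 2.3.3, NumPy 2.4.6, SciPy 1.17.1 and matplotlib 3.10.9.

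Genes with 5 CPM in any library were described in every library and the others by their range and counts. From each of the 4 pathway lists the gene with the largest called difference in each direction was named for the fractions, NSC and GF, together with Axin2, Nkd2 and Lef1; Wls, Ror1, Ror2, Ryk, Ccnd1, Nes and the macrophage genes were added after their values were seen. Genes and lists were chosen with earlier results of these data known. Of the listed symbols, 1 was not in the table. Positions and promoters are from RefSeq, GRCm38.p6, in which all 39 genes matched.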

Additional observations from a re-analysis of the deposited data

Results flagged for a closer look

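Among the 17 genes tested between the fractions on both days, Wnt16 was the one whose difference changed sides between the days. Its ratio of GFP+ to GFP- was 0.835 at D4 (95% counting interval 0.708 to 0.989) and 1.38 at D8 (1.19 to 1.59), so the single GFP+ library lay below the GFP- library at D4 and above it at D8. Neither ratio reached the 2-fold call, each side is 1 library, and the difference between the days was not tested.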

How the results depend on the processing

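Over the 9 comparisons for which all 6 alternatives were run, no call of a member changed direction. The other 7 comparisons were rescaled only: in the GFP+ fraction of D4 against D0 both scalings gave 2 higher in place of 5, and in the GFP- fraction 2 lower in place of 1. The 12 calls between the fractions at D4 were the same genes under each of them. Of the 13 at D8, Fzd7 was lost with a pseudocount of 5, and Wnt10a, Wnt10b and Wnt5b were added with a floor of 1 CPM or none. In the 9 comparisons these counts moved by over 1.5 times. A pseudocount of 5 left 1 lower at D1 and 1 lower at D2, and one of 0.1 gave 2 lower in GF. A floor of 1 CPM, and equally no floor, which let more genes be tested, gave 6 lower in the GFP+ and 3 lower in the GFP- fraction of D8 against D0, 11 lower in NSC, 2 lower in GF, and 10 higher in the GFP+ fraction of D8 against NSC. Median ratio scaling gave 5 lower in the GFP+ fraction of D8 against D0, 2 lower in the GFP- fraction and 3 lower in GF. TMM gave 4 higher and 5 lower in the GFP+ fraction against D0, 2 lower in the GFP- fraction and 3 lower in GF. For the scalings and pseudocounts the cause was not tested.

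With 1 library per group the spread between cultures or animals is unknown, and leaving out a replicate was not possible. No paired analysis was possible because each group has 1 library and the labels give no replicate numbers. At 20104940 to 36751356 counts per library, the floor of 3 counts against which a gene at 0 was set is worth 0.0816 to 0.149 CPM.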
